A study of Mus musculus with 9 samples.

Results

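The coding Hox genes were followed through whole-brain RNA-seq libraries of CON, DNP and BAC mice, and the question was how far along the Hox clusters each library reached. Members were all rows of the raw count table whose symbol is Hoxa, Hoxb, Hoxc or Hoxd followed by a number. The rule found 39 genes of the 53465 listed, 11 in the Hoxa cluster, 10 in Hoxb and 9 each in Hoxc and Hoxd, and no value was used to choose them. The mice were male C57BL/6, 7 weeks old at the start, with 3 libraries per group. CON mice received saline. DNP mice, the model of diabetic neuropathic pain, ate a 60% fat diet over 4 weeks, were then injected on 7 days with streptozotocin, which kills pancreatic beta cells (50 mg/kg), and received saline. BAC mice were treated as DNP mice but were given baclofen, which activates GABA-B receptors, on 7 days (8 mg/kg) in place of saline. Hypersensitivity was assessed 4 weeks after streptozotocin. Each library is described as a separate biological replicate in the study's methods, and brains were collected whole according to the labels.

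Hox genes encode homeodomain transcription factors that give cells of the embryo their position from head to tail. They lie in 4 clusters, and genes at the same place in different clusters are paralogs, numbered from 1 at the anterior end to 13 at the posterior end. Low numbers start in the hindbrain and high numbers start ever further down the spinal cord, an order called collinearity, and part of this pattern persists in adult neurons. The forebrain and midbrain lie in front of the anterior limit of every Hox gene, so Hox RNA in brain tissue is a marker of hindbrain and spinal cord.

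In GRCm38, the build of the files, the span from the first to the last coding gene was chr11:96194316-96368256 for Hoxb (173.9 kb), chr15:102921103-103036852 for Hoxc (115.8 kb) and chr2:74668310-74765142 for Hoxd (96.8 kb). Library totals were 13107382 to 16008129 counts on genes. A gene with no count in a library was limited to 3 counts, which is 0.187 to 0.229 CPM (counts scaled to the library total). These limits and all intervals below cover counting error only.

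Hox RNA was concentrated in 3 of the 9 libraries, which came from both streptozotocin-treated groups, whereas other libraries of the same groups had almost none. The CON libraries held 2, 13 and 0 Hox counts in replicates 1, 2 and 3. DNP replicate 1 held 1439 counts, and the other DNP libraries held 8 and 14. BAC replicates 1 and 3 held 4640 and 5374 counts, and BAC replicate 2 held 3. Together DNP replicate 1, BAC replicate 1 and BAC replicate 3 carried 99.7% of the 11493 Hox counts of the series.

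A gene was called reached in a library from 10 counts upward. No Hox gene was reached in any CON library, in DNP replicates 2 and 3 or in BAC replicate 2, where 33 to 39 of the 39 genes had no count at all. DNP replicate 1 reached 16 genes. BAC replicate 1 and BAC replicate 3 each reached 21 genes, and these were the same 21. All 16 genes of DNP replicate 1 were among them, and the 5 that it lacked were Hoxa6, Hoxa7, Hoxb7, Hoxc6 and Hoxd8.

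**Figure D1:**
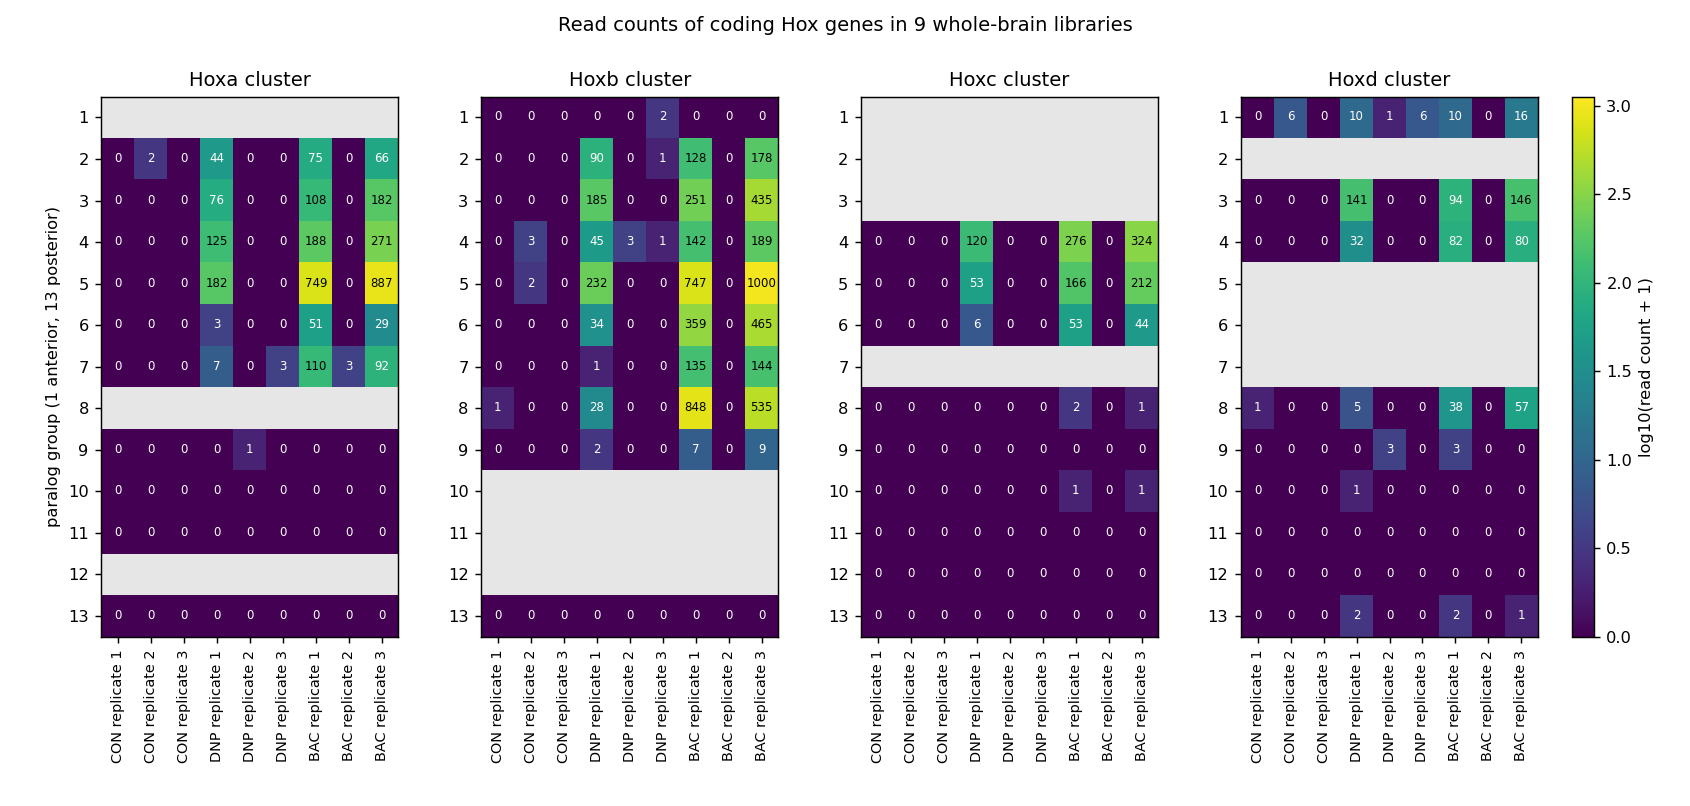
Read counts of coding Hox genes, with one panel per cluster, paralog groups 1 to 13 down the rows and the 9 libraries across the columns; colour is log10(count + 1), the printed digits are counts, and grey rows are paralogs that the cluster does not have or that are not shown. Only DNP replicate 1, BAC replicate 1 and BAC replicate 3 hold genes with 10 counts or more, and none of these lies beyond group 8.

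The most posterior paralog group reached was 8 in DNP replicate 1, BAC replicate 1 and BAC replicate 3, and in no library did a gene of groups 9 to 13 reach 10 counts. Within clusters the extent differed. DNP replicate 1 reached Hoxa5, Hoxb8, Hoxc5 and Hoxd4, whereas both BAC libraries reached Hoxa7, Hoxb8, Hoxc6 and Hoxd8. The single group 8 gene that DNP replicate 1 reached was Hoxb8, with 28 counts, and with a minimum of 30 counts this library ended at group 6. The corresponding limit stayed at group 8 in both BAC libraries, and it was 9 there with a minimum of 4 counts.

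Among the 18 genes that were not reached, 10 had no count in any library. These were Hoxa10, Hoxa11, Hoxa13, Hoxb13, Hoxc9, Hoxc11, Hoxc12, Hoxc13, Hoxd11 and Hoxd12. Hoxc9 is needed for thoracic identity of spinal motor neurons, Hoxa11 and Hoxd11 pattern the forearm, Hoxa13 the digits and genital tubercle, and Hoxc13 hair and nails. The other 8 had some counts but at most 9. Hoxb9 had 2 counts in DNP replicate 1, 7 in BAC replicate 1 and 9 in BAC replicate 3, and none elsewhere. Hoxd13, a gene of the digits, had 2, 2 and 1 counts in those libraries, Hoxc8 had 0, 2 and 1, and Hoxc10 had 0, 1 and 1. Hoxd9 had 3 counts in DNP replicate 2 and 3 in BAC replicate 1, Hoxa9 had 1 in DNP replicate 2 and Hoxd10 had 1 in DNP replicate 1. Hoxb1, the one unreached gene of the anterior groups, had 2 counts in DNP replicate 3 and none elsewhere. It sets the identity of rhombomere 4 in the embryo.

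The anterior groups 1 to 3 contain the genes that pattern the hindbrain itself. Hoxa2, the most anterior of all Hox genes in its limit, had 44 counts in DNP replicate 1, 75 in BAC replicate 1 and 66 in BAC replicate 3, with 2 in CON replicate 2. Hoxb2 had 90, 128 and 178, with 1 in DNP replicate 3. Both genes were thus far above the other 6 libraries in each of these libraries.

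Group 3 genes act in the middle of the hindbrain. Hoxa3, also known for the thymus and parathyroid, had 76 counts in DNP replicate 1, 108 in BAC replicate 1 and 182 in BAC replicate 3. Hoxb3 had 185, 251 and 435, and Hoxd3 had 141, 94 and 146. All 3 were at 0 in the other 6 libraries. Hoxd1, which is found in nociceptive neurons in mice, was the exception to the general pattern, with 6 counts in CON replicate 2, 1 in DNP replicate 2 and 6 in DNP replicate 3, against 10, 10 and 16 in the libraries that reached it.

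Groups 4 and 5 mark the caudal hindbrain and the upper cervical cord and held the most counts. Hoxa4 had 125 counts in DNP replicate 1, 188 in BAC replicate 1 and 271 in BAC replicate 3, Hoxc4 had 120, 276 and 324, and Hoxd4 had 32, 82 and 80. None of these had a count elsewhere. Hoxb4 had 45, 142 and 189, besides 3 counts in CON replicate 2, 3 in DNP replicate 2 and 1 in DNP replicate 3.

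Hoxa5, which with Hoxc5 maintains the phrenic motor neurons of the diaphragm, had 182 counts in DNP replicate 1, 749 in BAC replicate 1 and 887 in BAC replicate 3. Hoxb5, known from the enteric neural crest, had 232, 747 and 1000, and Hoxc5 had 53, 166 and 212. Outside these libraries only Hoxb5 had counts, 2 in CON replicate 2. The step from DNP replicate 1 to the BAC libraries was larger here than for the anterior genes.

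Groups 6 to 8 were the most posterior class in which any gene was reached. Hoxb8, a gene of the spinal dorsal horn and of a microglial lineage, had 28 counts in DNP replicate 1 against 848 in BAC replicate 1 and 535 in BAC replicate 3, and 1 in CON replicate 1. Hoxb6 had 34, 359 and 465, and Hoxb7 had 1, 135 and 144. Hoxa7 had 7, 110 and 92 counts, with 3 each in DNP replicate 3 and BAC replicate 2. Hoxa6 had 3, 51 and 29, Hoxc6, a gene of limb motor columns, had 6, 53 and 44, and Hoxd8 had 5, 38 and 57, with 1 in CON replicate 1. In this class DNP replicate 1 was near the unreached libraries for several genes, and both BAC libraries were far above it.

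Levels between genes were compared as FPKM, which divides by gene length. In the BAC libraries Hoxa5 was highest, at 30.4 FPKM in replicate 1 and 30.6 in replicate 3. Hoxb5 had 12.2 and 13.8 FPKM, Hoxb8 had 14.6 and 7.80, and Hoxa4 had 8.998 and 11.0. Hoxa5 and Hoxa4 were also highest in DNP replicate 1, at 7.02 and 5.68 FPKM, with Hoxb5 next at 3.59 and Hoxb8 at 0.457. The 16 genes reached in DNP replicate 1 spanned 0.253 to 7.02 FPKM, and the 21 genes reached spanned 0.267 to 30.4 in BAC replicate 1 and 0.151 to 30.6 in BAC replicate 3. In the Hoxd cluster no gene exceeded 1.19 FPKM.

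**Figure D2:**
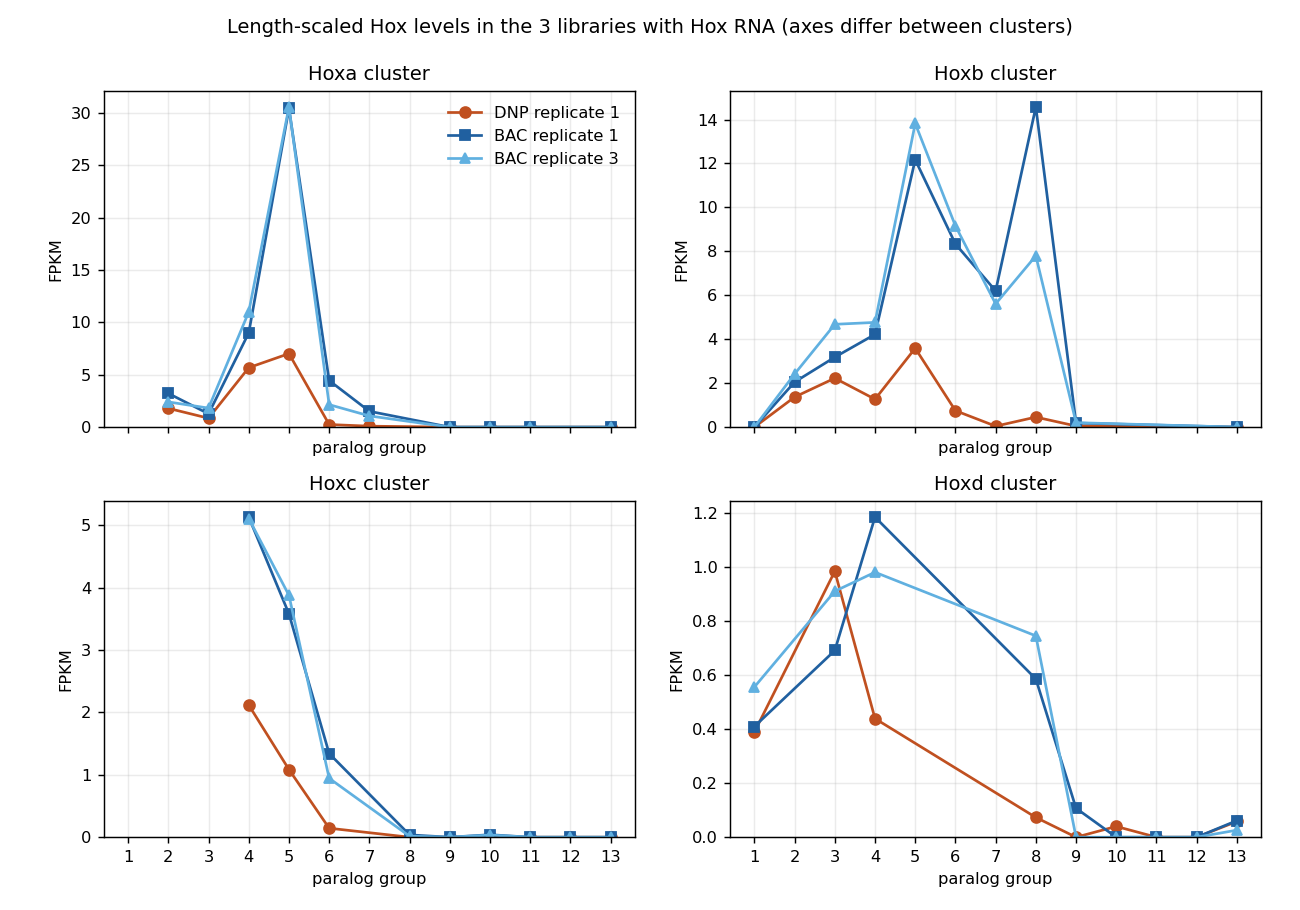
FPKM of Hox genes against their paralog group in DNP replicate 1, BAC replicate 1 and BAC replicate 3, with one panel per cluster and a separate linear axis for each. Levels peak at Hoxa5 in the Hoxa cluster, fall to near 0 from group 9 on in each cluster, and in DNP replicate 1 are at 0.457 or less from group 7 on.

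Clusters and classes shared the Hox counts differently between these libraries. Groups 1 to 3 took 38.99% of the Hox counts in DNP replicate 1 (exact Clopper-Pearson 95% interval 36.5 to 41.6), 14.7% in BAC replicate 1 (13.7 to 15.7) and 19.2% in BAC replicate 3 (18.2 to 20.3). Groups 4 and 5 took 54.8%, 50.6% and 55.1%. For groups 6 to 8 the shares were 5.84% in DNP replicate 1 (4.68 to 7.18), 34.4% in BAC replicate 1 (33.0 to 35.8) and 25.4% in BAC replicate 3 (24.3 to 26.6). Groups 9 to 13 took 0.3475%, 0.2802% and 0.2047%. The Hoxb cluster held 42.9%, 56.4% and 55.0%, and the Hoxd cluster held 13.3%, 4.94% and 5.58%. The interval of DNP replicate 1 lay wholly above those of both BAC libraries for groups 1 to 3 and wholly below them for groups 6 to 8.

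Ratios of CPM between single libraries showed the same gradient gene by gene, and they compare those libraries, not the treatments. From BAC replicate 1 to DNP replicate 1 the ratio was 1.28 (exact 95% interval 1.14 to 1.43) for groups 1 to 3 summed, 3.14 (2.89 to 3.41) for groups 4 and 5 and 20.0 (16.1 to 25.2) for groups 6 to 8. By single group it was 1.60 and 1.19 for groups 2 and 3, 2.25 and 3.75 for groups 4 and 5, and 11.3, 32.3 and 28.3 for groups 6, 7 and 8. From BAC replicate 3 to DNP replicate 1 the values were 1.65 (1.48 to 1.83), 3.36 (3.10 to 3.63) and 14.5 (11.7 to 18.3) for the 3 classes.

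Single genes followed their class. The 7 genes of groups 1 to 3 that were reached had ratios of 0.702 to 1.80 between BAC replicate 1 and DNP replicate 1, those of groups 4 and 5 had 1.58 to 4.33, and those of groups 6 to 8 had 8.01 to 142. The last value belongs to Hoxb7, which rests on 1 count in DNP replicate 1 (25.1 to 5660). Hoxb8 was 31.9 times (21.9 to 48.3) and Hoxb6 11.1 times (7.81 to 16.3) as high in BAC replicate 1. Hoxd3 was the one gene lower in BAC replicate 1, with a ratio of 0.702 (0.535 to 0.918), and in BAC replicate 3 its interval covered 1 (0.925, 0.729 to 1.17).

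**Figure D3:**
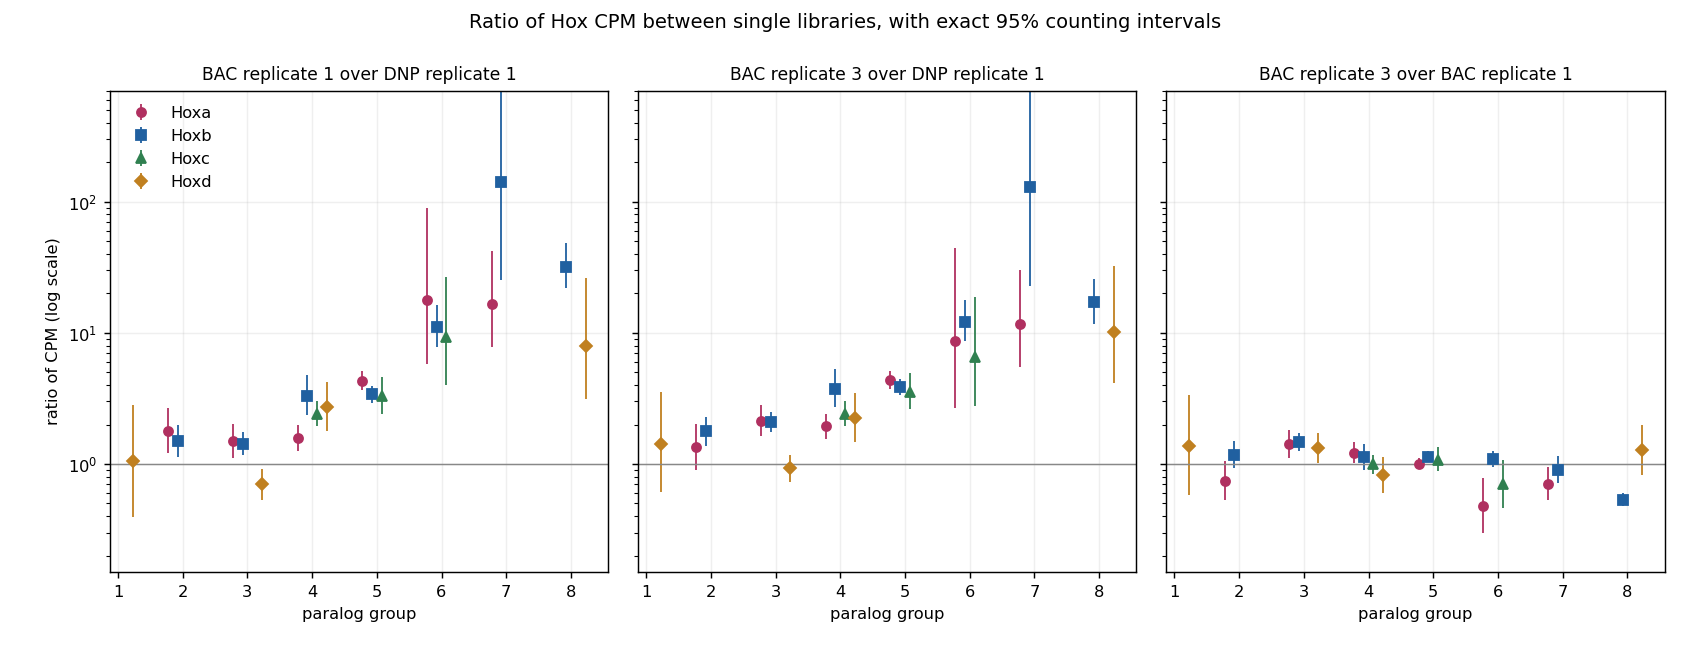
Ratio of CPM between pairs of single libraries for reached Hox genes against their paralog group, on a log scale, with exact 95% intervals for counting error and a line at 1; the interval of Hoxb7 runs past the top of the axis in both panels against DNP replicate 1. Against DNP replicate 1 the ratios are at most 1.80 (BAC replicate 1) and 2.14 (BAC replicate 3) in groups 1 to 3. In groups 6 to 8 they are 8.01 or more (BAC replicate 1) and 6.55 or more (BAC replicate 3). The ratios of BAC replicate 3 to BAC replicate 1 stay within 0.482 to 1.47.

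The BAC libraries were close to each other in total Hox level, with a ratio of BAC replicate 3 to BAC replicate 1 of 0.982 (0.944 to 1.02), but not in every gene. Their ratio was 1.29 (1.17 to 1.42) for groups 1 to 3, 1.07 (1.01 to 1.13) for groups 4 and 5 and 0.726 (0.675 to 0.781) for groups 6 to 8. Of 21 genes, 5 had an interval above 1 and 3 had one below 1, all 3 in groups 6 to 8. These were Hoxa6, Hoxa7 and Hoxb8, the last with a ratio of 0.535 (0.479 to 0.597), and Hoxb3 was higher in BAC replicate 3 by 1.47 times (1.26 to 1.72).

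Between groups, the mean Hox level of CON was 0.354 ± 0.509 CPM (SD, n = 3 libraries), that of DNP 35.2 ± 59.7 and that of BAC 234 ± 202 (n = 3 each). The SD exceeded the mean in CON and DNP and nearly equalled it in BAC. Each treated group contained both libraries with and libraries without Hox RNA. The values of the groups overlapped. In bulk tissue, fewer cells of a type and less RNA per cell cannot be told apart.

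The 15 genes that passed the filter on low counts were Hoxa2, Hoxa3, Hoxa4, Hoxa5, Hoxb2, Hoxb3, Hoxb4, Hoxb5, Hoxb6, Hoxb8, Hoxc4, Hoxc5, Hoxd1, Hoxd3 and Hoxd4, and the other 24 were not tested. Each passed through its counts in DNP replicate 1, BAC replicate 1 and BAC replicate 3, so these 15 are not a fair sample of the 39. None of the 15 had an adjusted p under 0.05 by edgeR (quasi-likelihood, Benjamini-Hochberg) when DNP was compared with CON, BAC with DNP or BAC with CON, and in each comparison 0% of the 18501 genes tested did.

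In DNP versus CON the adjusted p of the 15 genes lay between 0.471 and 0.765 (edgeR). At an unadjusted p under 0.05, 0 of the 15 passed, where 5.71% of all genes passed as higher in DNP, and for none were the 3 DNP libraries all above the 3 CON libraries, where this held for 11.6% of all genes. Hoxb3 had 0, 0 and 0 CPM in CON and 4.47 ± 7.74 CPM in DNP, at least 22.0-fold higher against a limit of 3 counts per library (adjusted p = 0.490, edgeR). Hoxa5 stood at 4.39 ± 7.61 CPM in DNP, at least 21.7-fold above CON (adjusted p = 0.516, edgeR), and Hoxb6 at 0.821 ± 1.42 CPM, at least 4.05-fold above CON (adjusted p = 0.600, edgeR). In each case DNP replicate 1 supplied all the DNP counts. Without DNP replicate 1, 1 of the 20 Hox genes then tested, Hoxd1, had a library above 3 counts in either group.

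The tools differed for 2 genes. DESeq2 gave adjusted p = 2.07e-05 for Hoxb3 and 2.92e-05 for Hoxd3 in DNP versus CON, where it called 0.796% of all genes higher in DNP. In BAC versus CON it gave 1.16e-05 and 3.64e-05 for the same genes, with 0.336% of all genes called higher in BAC. It called no Hox gene in BAC versus DNP, against 0.0217% of all genes higher in BAC. The counts behind both calls in DNP are those of a single library, 185 for Hoxb3 and 141 for Hoxd3, with 0 in the other DNP libraries. In BAC they are those of BAC replicates 1 and 3, with 0 in BAC replicate 2. The DESeq2 log2 fold changes of Hoxb3 and Hoxd3 were 22.4 and 22.1 in DNP versus CON and 24.2 and 22.7 in BAC versus CON. Those of edgeR were 9.02 and 8.63, and 10.8 and 9.29. Both genes had no count in CON, so these fitted sizes are not measured folds. For Hoxa5 and Hoxc4 DESeq2 gave no adjusted p.

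For BAC versus DNP every tested Hox gene had an adjusted p of 0.998 (edgeR), with fitted log2 fold changes between 0.56 and 5.57 and a median of 2.22, beside -0.01 over all genes. Hoxb8 was the one gene at an unadjusted p under 0.05 (1.37% of all genes were, as higher in BAC). Its level was 33.1 ± 32.4 CPM in BAC and 0.676 ± 1.17 in DNP, 49.0 times as high, with a log2 fold change of 5.57 ± 1.95 (SE, adjusted p = 0.998, edgeR). Hoxa5 was 8.69 times, Hoxb6 23.3 times and Hoxd3 1.63 times as high in BAC as in DNP, and all DNP counts of these genes, and of Hoxb8, came from DNP replicate 1. Without that library 14 of the 15 had an unadjusted p under 0.05, where 4.79% of all genes did as higher in BAC. Without BAC replicate 2 it was 3 of the 15, where 2.69% of all genes did. The 15 had passed the filter through the libraries with Hox RNA, so neither share tests them against all genes. The libraries of the groups overlapped for each of the 15, whereas 3.62% of all genes lay wholly higher in BAC.

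In BAC versus CON, 13 of the 15 had an unadjusted p under 0.05, where 4.46% of all genes did as higher in BAC, and the adjusted p values were 0.628 to 0.741 (edgeR). The 15 had passed the filter on low counts through DNP replicate 1, BAC replicate 1 and BAC replicate 3. Their share is therefore no test of Hox genes against all genes. With a library left out, 2 to 14 of the 15 had an unadjusted p under 0.05, where 1.78% to 6.59% of all genes did as higher in BAC. It was 2 without CON replicate 3 (2.83% of all genes), 3 without CON replicate 1 (3.73%) and 14 without BAC replicate 2 (6.59%). It was 4 without CON replicate 2 (4.27%), BAC replicate 1 (3.75%) or BAC replicate 3 (1.78%). No tested Hox gene separated the BAC from the CON libraries, since BAC replicate 2 had at most 3 counts of any of the 39, whereas 9.17% of all genes lay wholly higher in BAC. Hoxa5 had 38.2 ± 33.1 CPM in BAC, at least 188-fold above CON (adjusted p = 0.628, edgeR). Hoxb6 was at least 94.5-fold, Hoxb3 at least 77.8-fold and Hoxc4 at least 69.1-fold higher. The median fitted log2 fold change of the 15 was 9.64, which depends on the small count added to zeros, and it was 5.87 with 10 genes at their bound. The medians in DNP versus CON were 7.21 and 3.90.

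**Figure D4:**
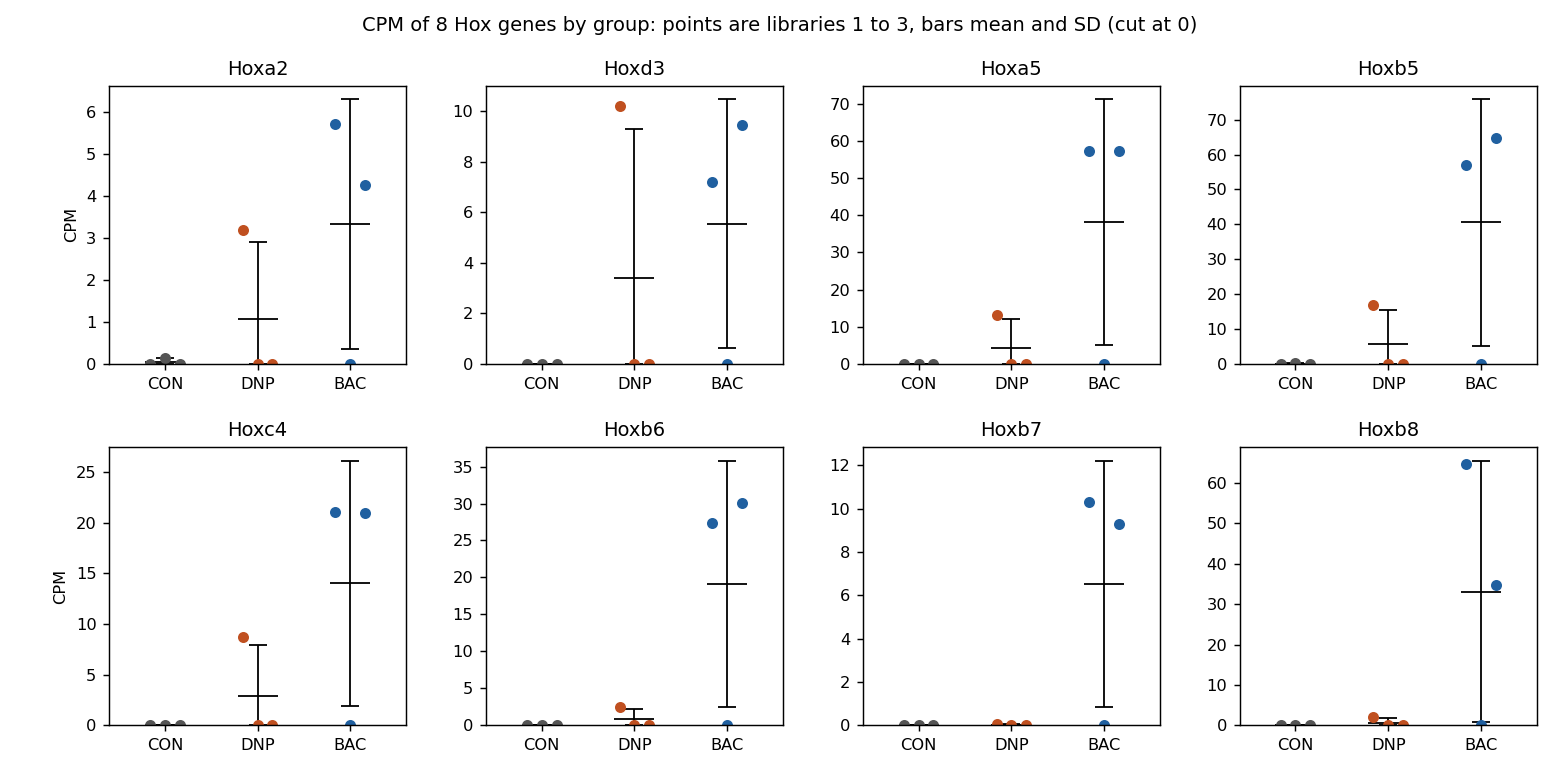
CPM of 8 Hox genes in the CON, DNP and BAC libraries, with points for replicates 1 to 3 from left to right and bars for the mean and SD of 3 libraries, drawn from 0 where the SD passes below it. One DNP and 2 BAC points stand above 0 for Hoxa2, Hoxd3, Hoxa5, Hoxb5, Hoxc4, Hoxb6 and Hoxb8, and for Hoxb7 the DNP point rests on 1 count.

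The summed markers of hindbrain and spinal neurons moved with the Hox genes. The 12 markers of hindbrain and spinal neurons summed to 469 CPM in DNP replicate 1, 335 in BAC replicate 1 and 456 in BAC replicate 3, with all 12 detected. The list summed to 2.62, 52.7 and 8.18 CPM in CON, 1.84 and 2.65 in DNP replicates 2 and 3 and 2.57 in BAC replicate 2, where 3 to 5 of the 12 were at 0. Slc6a5, the glycine transporter of inhibitory neurons of the hindbrain and cord, had 3974, 3064 and 2609 counts in the Hox libraries, 397 in CON replicate 2 and at most 65 elsewhere. In edgeR, 10 of the 11 tested members were higher in DNP than in CON, where 9509 of all 18501 genes were. In BAC versus CON it was 11 of 11 (8915 of all genes) and in BAC versus DNP 10 of 11 (8908), with none past the adjusted threshold. At least 10 counts were found for 11 or 12 of the 12 markers in the Hox libraries and for 0 to 4 elsewhere. The tested members thus passed the filter on low counts mainly through those libraries.

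The forebrain list ran the other way. Its 12 markers summed to 83.5, 22.3 and 29.7 CPM in DNP replicate 1, BAC replicate 1 and BAC replicate 3, to 82.7 in CON replicate 2 and to 482 through 561 in the other 5 libraries. Emx2 was at 0 in BAC replicate 1 and Dlx5 at 0 in BAC replicate 3. All 9 libraries were labelled as whole brain, and the summed forebrain markers were lowest in BAC replicates 1 and 3.

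The cerebellum is a derivative of the hindbrain in front of the Hox domains. Within DNP and within BAC its markers were higher in the Hox libraries than in the others. In CON they did not track the Hox genes, since CON replicates 2 and 3 were high with almost no Hox RNA. The 10 cerebellar markers were highest in CON replicate 2, at 6664 CPM, which had 13 Hox counts. They stood at 3496 in BAC replicate 1, 1168 in BAC replicate 3, 975 in CON replicate 3 and 654 in DNP replicate 1, and at 70.7 to 112 in the other 4 libraries. Gabra6, a receptor subunit of granule cells, was at 0 in DNP replicates 2 and 3 and in BAC replicate 2. The part of tissue content in the group values of the Hox genes was not tested.

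**Figure D5:**
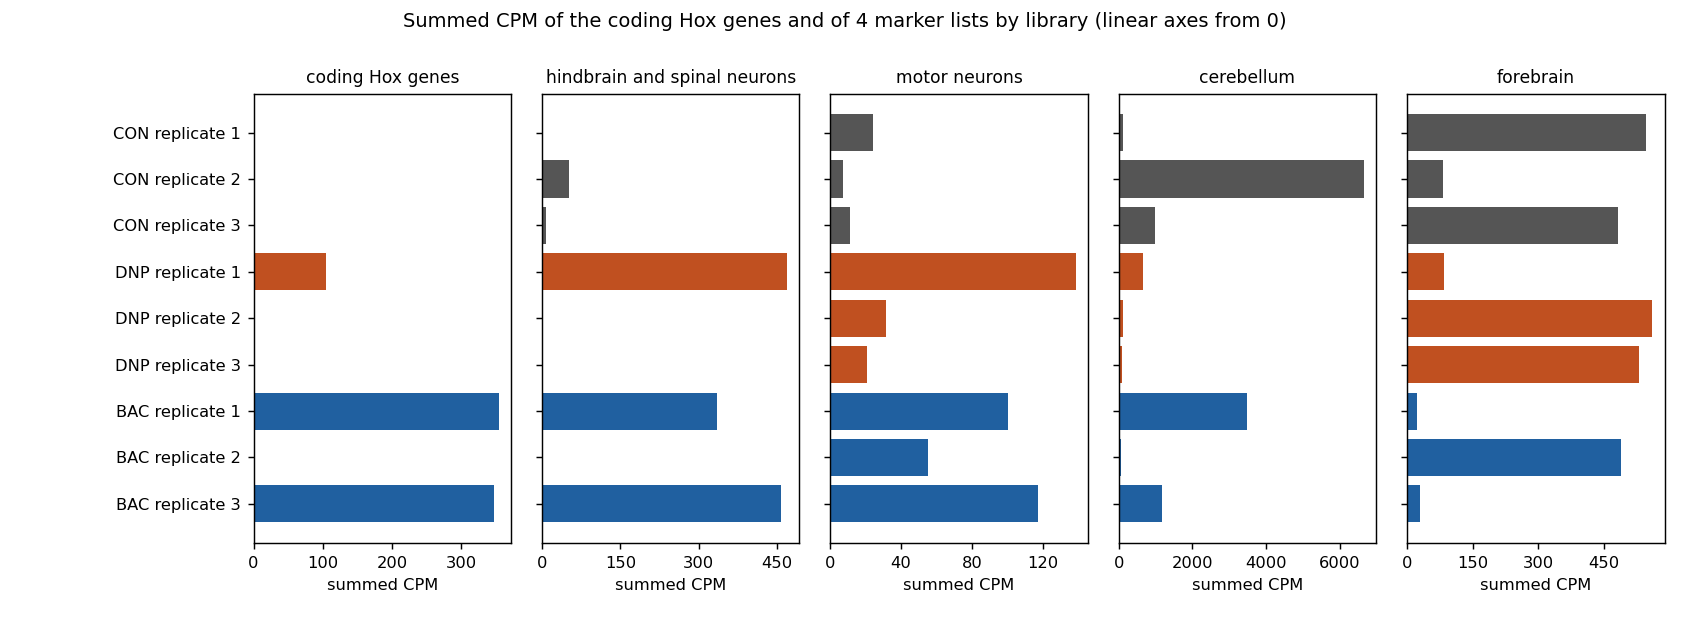
Summed CPM of the 39 coding Hox genes and of 4 marker lists in the 9 libraries, with a linear axis from 0 in each panel and colour by group. Hox RNA and the hindbrain and spinal list are high in DNP replicate 1, BAC replicate 1 and BAC replicate 3, where the forebrain list is low, and the cerebellum list is highest in CON replicate 2.

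Markers of other tissues were summed in the same way. Skeletal muscle markers summed to 5.55 to 16.2 CPM in CON, 9.27 to 15.2 in DNP and 5.42 to 10.7 in BAC. Markers of sensory ganglia summed to 3.24 to 7.25, 6.88 to 8.26 and 4.42 to 12.4 CPM, with Mrgpra3, a defining receptor of itch neurons, at 0 in every library. Meningeal and fibroblast markers were highest within each treated group in the Hox libraries, at 50.1 CPM in DNP replicate 1 against 49.0 and 36.6 in DNP replicates 2 and 3, and at 100.5 in BAC replicate 1 and 92.1 in BAC replicate 3 against 62.0 in BAC replicate 2. They summed to 59.6 to 89.8 CPM in CON, which had almost no Hox RNA. Choroid plexus markers were at 281 to 505, 28.7 to 1409 and 28.4 to 1350 CPM. The part of these tissues in the Hox levels was not tested. The markers listed for the midbrain were at 32.5 CPM in DNP replicate 1, 15.9 in BAC replicate 1 and 116 in BAC replicate 3. They were at 60.5 in DNP replicate 2 and at 1.44 to 15.2 in the other 5 libraries. Th made up most of the sum in DNP replicate 2 (56.06 CPM) and in BAC replicate 1 (14.11). Pitx3 and En1 were at 0 in DNP replicate 2, so the members of this list did not move together.

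Motor neuron markers summed to 139, 101 and 117 CPM in DNP replicate 1, BAC replicate 1 and BAC replicate 3, and to 7.20 to 55.2 elsewhere. Isl1, of the same list, ran the other way within the treated groups, at 0.869, 0.916 and 1.29 CPM in those libraries. It stood at 7.51 and 5.63 in DNP replicates 2 and 3 and 11.08 in BAC replicate 2. Chat was at 10.94 CPM in BAC replicate 2 and 10.3 in BAC replicate 1. Mnx1, a defining gene of spinal motor neurons, had 7 counts in BAC replicate 1, 4 in BAC replicate 3 and 0 in the other 7 libraries, DNP replicate 1 included. Myelin markers summed to 8535, 6747 and 8982 CPM in the Hox libraries and to 1933 to 6563 in the others.

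Within the hindbrain list, several genes did not share the rise from DNP replicate 1 to the BAC libraries. Slc6a5 was lower in BAC replicate 1 than in DNP replicate 1, with a CPM ratio of 0.812 (0.775 to 0.852), and Glra1, a glycine receptor subunit, was slightly higher at 1.27 (1.11 to 1.45). Tph2, the serotonin-synthesising enzyme of raphe neurons, had 854 counts in DNP replicate 1, 47 in BAC replicate 1 and 1701 in BAC replicate 3. Slc6a4, the serotonin transporter, had 450, 19 and 1168. Tlx3, a gene of glutamatergic dorsal horn and hindbrain neurons, did rise, with 23, 195 and 114 counts, but also had 203 in CON replicate 2. That library was the highest in cerebellar markers and had almost no Hox RNA. In CPM Tlx3 was at 14.6 there, 14.9 in BAC replicate 1 and 7.38 in BAC replicate 3, so it did not follow the Hox genes alone. Its ratio to DNP replicate 1 was 8.93 (5.78 to 14.4) in BAC replicate 1 and 4.43 (2.81 to 7.27) in BAC replicate 3. Lmx1b rose less, with ratios of 1.45 (1.13 to 1.87) and 1.9 (1.51 to 2.4). The libraries that were alike in Hox composition, BAC replicates 1 and 3, were thus far apart in serotonergic markers.

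Among the 10 genes outside the clusters whose profile over the 9 libraries was closest to that of the summed Hox counts were Glra1, Mab21l2, C130021I20Rik, Pax8, Pou4f1, Evx1, Lmx1b, Otp and Slc6a4. Likeness was the root mean square difference of centred log2 CPM, from 1.64 for Glra1 to 2.26 for Slc6a4. Pax8, a paired-box factor, had 85 counts in DNP replicate 1, 90 in BAC replicate 1 and 111 in BAC replicate 3, against at most 1 elsewhere. Glra1 had 406, 488 and 516, against at most 8.

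At the edges of the clusters, expression split. Evx1, a homeobox gene of spinal interneurons next to Hoxa13, had 57, 48 and 62 counts in DNP replicate 1, BAC replicate 1 and BAC replicate 3 and 0 in the other 6, although Hoxa10 through Hoxa13 between it and the reached genes had none. Evx2, next to Hoxd13, had 67, 19 and 40, with 5 in CON replicate 2 and 2 in DNP replicate 3. Several flanking genes of general function were counted in each library. Lnpk had 419 to 572 counts, Snx11 427 to 687, and Cbx5, a heterochromatin protein, 2607 to 3510. Not every neighbour was level. Skap2 had 22.45, 21.13 and 29.05 CPM in DNP replicate 1, BAC replicate 1 and BAC replicate 3 and 9.80 to 13.4 elsewhere. In the same order Hibadh had 66.05, 68.05 and 73.57 CPM against 34.73 to 56.05, and Mtx2 40.92, 33.11 and 36.11 against 19.77 to 31.75. Hnrnpa3 ran from 34 to 1723 counts over the libraries.

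Several noncoding genes inside the clusters were counted mainly in the same 3 libraries as the coding genes. Hotairm1, from the anterior end of the Hoxa cluster, had 38, 39 and 56 counts in DNP replicate 1, BAC replicate 1 and BAC replicate 3 and at most 2 elsewhere. Hoxaas2 had 46, 92 and 86, Hoxb3os 45, 46 and 49, and Haglr, which starts beside Hoxd1, had 52, 47 and 97 with 11 in CON replicate 2. Not every such row did so. The processed pseudogene Gm11539, between Hoxb9 and Hoxb13, had 31 to 43 counts in each of the 9 libraries, and the lincRNA Gm14424 had 9, 8 and 10 counts in the Hox libraries and up to 6 in the others. Both were named after their values were seen. Hotair and Hottip, from the posterior parts of Hoxc and Hoxa, had no count in any library. MicroRNA genes of the clusters had at most 1 count, and poly(A) libraries of this kind are not made to measure them.

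Overlaps limit single values. Those given here come from GENCODE gene models on GRCm38, which need not be the models behind the deposited counts. The deposited FPKM imply lengths of 6014 bases for Hoxb3, 10375 for Hoxd3 and 5552 for Hoxa7, which differ from the exon bases below. The libraries carry no strand, and 2250 of the 4251 exon bases of Hoxb3 are shared with Hoxb3os on the opposite strand. Hoxd3 and Hoxd4 share 388 exon bases with each other, and 2225 of the 4191 of Hoxd3 also belong to the read-through gene Gm28230, which had 5, 45 and 119 counts in the Hox libraries. Hoxa7 shares 586 of 2876 exon bases with Hoxaas3. For these genes, reads of one and the other cannot be told apart.

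Most genes that act with or upstream of Hox proteins were counted with or without Hox RNA, but single members varied. The 9 Hox cofactors of the Pbx, Meis and Pknox families had counts in each library and summed to 328 to 458 CPM in CON, 380 to 818 in DNP and 353 to 690 in BAC. One of them, Meis2, ran from 19.6 to 292.5 CPM over the libraries. Of the 15 upstream regulators, Cdx1, Cdx2 and Cdx4, which switch on posterior Hox genes in the embryo, had no count, and the list summed to 94.2 to 122 CPM over the libraries. Within it Gbx2 had 2, 0 and 2 counts in CON, 31, 2 and 15 in DNP and 33, 24 and 42 in BAC. Egr2, which drives Hoxa2 and Hoxb2 in rhombomeres but is also an activity-induced gene of the forebrain, had 31, 3 and 5 counts in the Hox libraries and 36 to 281 in the others. Polycomb genes, which keep Hox clusters silent, summed to 905 to 1191 CPM and Trithorax genes, which keep them active, to 455 to 680. Across these 4 lists 0 members passed the adjusted threshold in any comparison (edgeR), and 0 to 2 members of 6 to 15 tested had an unadjusted p under 0.05 in a single list, direction and comparison, where the shares of all genes were 5.71% as higher and 5.46% as lower in DNP versus CON, 1.37% and 1% in BAC versus DNP, and 4.46% and 3.3% in BAC versus CON.

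Promoters are shown for genes at both ends of the range, because the counts stop within the Hoxa cluster between Hoxa7 and Hoxa9. RefSeq promoters (GRCm38.p6) matched 22 of the 39 Hox genes. The lines give the 250 bases upstream of the start, 5′ to 3′ on the gene's strand, with CpG dinucleotides in capitals, for the reached genes Hoxa5 (chr6:52204588-52204837, minus strand) and Hoxb8 (chr11:96281655-96281904, plus strand) and the unreached genes Hoxa9 (chr6:52227371-52227620, minus strand) and Hoxa13 (chr6:52260881-52261130, minus strand).
Hoxa5: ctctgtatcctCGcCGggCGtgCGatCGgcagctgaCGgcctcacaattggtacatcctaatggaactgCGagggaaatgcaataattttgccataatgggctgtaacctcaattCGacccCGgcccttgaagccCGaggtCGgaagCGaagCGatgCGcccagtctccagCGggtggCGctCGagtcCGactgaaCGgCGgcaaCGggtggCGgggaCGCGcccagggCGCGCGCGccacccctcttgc
Hoxb8: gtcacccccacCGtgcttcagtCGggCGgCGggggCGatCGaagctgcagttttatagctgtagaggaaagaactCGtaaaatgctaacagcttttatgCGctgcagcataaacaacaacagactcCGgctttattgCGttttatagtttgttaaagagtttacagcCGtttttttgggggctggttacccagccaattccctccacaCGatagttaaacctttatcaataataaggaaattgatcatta
Hoxa9: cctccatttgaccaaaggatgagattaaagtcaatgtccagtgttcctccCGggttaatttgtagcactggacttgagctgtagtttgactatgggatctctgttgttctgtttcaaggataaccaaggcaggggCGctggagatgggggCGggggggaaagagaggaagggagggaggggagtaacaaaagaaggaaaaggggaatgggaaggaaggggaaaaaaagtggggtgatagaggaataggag
Hoxa13: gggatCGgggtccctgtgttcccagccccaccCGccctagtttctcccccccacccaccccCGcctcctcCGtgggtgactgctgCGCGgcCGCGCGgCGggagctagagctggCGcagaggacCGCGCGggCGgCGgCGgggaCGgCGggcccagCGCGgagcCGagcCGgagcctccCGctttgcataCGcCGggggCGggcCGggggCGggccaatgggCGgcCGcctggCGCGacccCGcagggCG

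The windows held 28 CpG for Hoxa5, 12 for Hoxb8, 3 for Hoxa9 and 35 for Hoxa13. The unreached genes thus had the lowest and the highest number of these 4. No exon annotated by GENCODE lay in these windows, although the GENCODE gene model of Hoxa9 extends past this RefSeq start. Over all 22 the median was 12 CpG and 56.8% GC, beside 6 CpG and 52% over the 27018 promoters of the table. The 12 matched genes that were reached had a median of 12 CpG and 56.4% GC, and the 10 that were not had 11.5 CpG and 57.4% GC. Of motifs searched on both strands, CCAAT was present in 13 of 22 Hox windows (59.1%, and 34.5% of all promoters), TGATNNAT, a Pbx-Hox form, in 3 (13.6%, and 7.92%), TATAAA in 3 (13.6%, and 13%) and TTTATGG in 1 (4.55%, and 2.45%). CCAAT was in 8 of the 12 reached and 5 of the 10 unreached genes.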

How the data were processed

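Poly(A) RNA of the whole brain was sequenced in non-strand-specific paired-end libraries of 150 bp from 3 CON, 3 DNP and 3 BAC mice, grouped by the sample labels. The submitters' processing notes name FastQC 0.11.9, fastp, Bowtie2 2.3.4.1, HISAT2 2.1.0 and StringTie 1.3.3b with GRCm38. The authors deposited raw counts per gene, which were used for all tests, and FPKM, which equal the deposited counts over a gene length and the total of the library. The handling of reads that match several paralogs is not given in the sources used here.

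Counts were scaled to CPM by library total. In R 4.3.3, edgeR 4.0.16 (quasi-likelihood test, TMM, filterByExpr with a minimum count of 10, all 9 libraries in 1 fit, Benjamini-Hochberg over 18501 genes, threshold 0.05) compared the groups, and DESeq2 1.42.0, the study's tool, and limma 3.58.1 on log2(FPKM + 1) or log2(FPKM + 0.1) were alternatives. With 3 libraries per arm, the biological coefficient of variation common to all genes tested was 36.5%. It does not give the precision for the Hox genes, whose summed level had an SD that exceeded or nearly equalled the mean in each group. The pipeline was tested on simulated data.

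Text could name coding Hox genes, the members of 16 gene lists, and the 10 genes outside the clusters with the smallest root mean square difference from the summed Hox profile. Members, lists and tests were chosen with earlier results of these data known. Same-numbered libraries correlated from -0.579 to 0.56 in their deviations from group means, so numbers were not taken as pairs. Authors' comparison columns were not used. Results for some single genes are not reported here.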

Additional observations from a re-analysis of the deposited data

How the results depend on the processing

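Directions held under RLE and upper-quartile factors, other filters, DESeq2 and limma, and by edgeR 0 Hox genes had an adjusted p under 0.05 in any alternative. DESeq2 gave 2 such genes in DNP versus CON and 2 in BAC versus CON, each with no count in CON. In filtered fits the tested Hox genes passed mainly through the Hox libraries, so their shares are no test of Hox genes against all genes. Counts of Hox genes at p under 0.05 before adjustment rest on different numbers of tested genes, and shares of all genes are given as higher in the first group. In DNP versus CON it was 3 of 15 with DESeq2 (5.91% of all genes) and 0 to 1 of 20 or 21 when each library was left out in turn (3.8% to 5.37%). In BAC versus DNP it was 6 of 29 with no filter (1.29%), of which 1 was among the 15 genes of the report, 0 of 13 with a minimum count of 30 (1.42%), 2 of 15 with limma on log2(FPKM + 1) (1.3%), and 0 of 15 on log2(FPKM + 0.1) (1.34%) and with DESeq2 (1.79%). With a library left out it was 0 to 17, which were 17 of 20 without DNP replicate 1 (4.79%, 14 among the 15), 8 of 21 without BAC replicate 2 (2.69%, 3 among the 15) and 0 of 15 without BAC replicate 1 (0.586%). In BAC versus CON it was 21 of 29 with no filter (3.31%, 14 among the 15) and 7 of 15 on log2(FPKM + 0.1) (6.04%). With a library left out it was 4 to 20, which were 4 of 15 without BAC replicate 1 (3.75%), 4 of 16 without BAC replicate 3 (1.78%), 20 of 21 without BAC replicate 2 (6.59%, 14 among the 15), 8 of 21 without CON replicate 1 (3.73%, 3 among the 15), 9 of 21 without CON replicate 2 (4.27%, 4 among the 15) and 7 of 21 without CON replicate 3 (2.83%, 2 among the 15).

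The median log2 fold change of the tested Hox genes in DNP versus CON was 0.405 on log2(FPKM + 1) and 1.19 on log2(FPKM + 0.1), scales that shrink low values, and in BAC versus CON 1.52 and 3.51. In BAC versus DNP it ran from 1.58 to 9.41 with a library left out, and 9.41 was reached without DNP replicate 1. With the score of the hindbrain list as a covariate the medians were 2.11 in DNP versus CON and 4.28 in BAC versus CON, and 0 of 15 genes in BAC versus CON (3.52% of all genes) and 5 of 15 in BAC versus DNP (1.43%) had an unadjusted p under 0.05. Under this covariate the log2 fold change turned to -0.264 for Hoxa2 and -1.19 for Hoxb8 in DNP versus CON and to -0.463 for Hoxd1 in BAC versus DNP, which ran from -0.119 (without BAC replicate 3) to 1.29 with a library left out. The cause was not tested.

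With the replicate number as a block, 2 of 15 genes had an unadjusted p under 0.05 in BAC versus DNP (1.18% of all genes), and 0 had an adjusted p under 0.05 in any comparison. The numbers did not pair the libraries. With 2 groups fitted alone, 0 Hox genes passed the filter in DNP versus CON and BAC versus CON, so those fits gave no value, and without DNP replicate 1 no median could be had in DNP versus CON. Where a library was left out, the group's spread rested on 2 libraries and the shared fit.

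With 3 libraries a group and Hox RNA in some libraries of a group and not in others, treatment and the tissue content of a library cannot be told apart here. At 13107382 to 16008129 counts a library, 0 counts limit a gene to 0.187 to 0.229 CPM, which is an upper limit for a gene without a count and not a limit of detection.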
